A study of Sus scrofa with 19 samples.

Results

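The adrenal glands of male pigs whose dams had eaten fish oil were compared with those of male pigs whose dams had eaten microalgae, among the offspring of sows that received saline in late gestation. The comparison used 7 of the 19 arrays of the study, 4 from fish oil offspring (piglets 9, 11, 13 and 18) and 3 from microalgae offspring (piglets 12, 15 and 22), chosen by their labelled maternal diet and maternal challenge. All probe sets whose mean log2 signal over the 19 arrays lay above the lowest 25% were tested, which left 20668 of 27558, and the lowest level kept was 3.23 on the log2 scale. Of those tested, 10699 carried 1 gene symbol, for 9992 genes.

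Sows ate the fish oil, microalgae or control diet from gestation day 75, and each was injected with saline or bacterial lipopolysaccharide (LPS) on gestation day 112. The piglets, 1 male per sow, were weaned at 21 days. At 28 days every piglet was itself challenged with LPS, and the whole adrenal gland was snap-frozen 2 h later. All groups therefore carry the piglet's own acute LPS response, and no unchallenged piglet was measured. The other groups used here for reference were the control diet after maternal saline (3 piglets), and fish oil (4 piglets), microalgae (2 piglets) and control diet (3 piglets) after maternal LPS. Because each array is 1 piglet of 1 sow, the p-values measure the spread between these litters.

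Fish oil and microalgae are feeds that both supply long-chain omega-3 fatty acids, which are built into membrane phospholipids, serve as precursors of lipid mediators and bind nuclear receptors of the PPAR and RXR families. The adrenal gland holds a steroid-making cortex, whose outer zona glomerulosa makes aldosterone and whose middle zone makes cortisol, a catecholamine-making medulla, and an outer capsule of fibroblasts. LPS acts on the gland through pituitary ACTH and through its own macrophages and endothelium, which respond with cytokines and interferon-stimulated genes.

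The 7 arrays had median log2 signals of 4.38 to 4.49, and pairs of them correlated at 0.959 to 0.980, both over all 27558 probe sets. CYP17A1, the cortical enzyme that directs steroids toward cortisol, read 12.38 to 12.49 in fish oil offspring and 12.32 to 12.56 in microalgae offspring. PNMT, the enzyme of the medulla that makes adrenaline, read 6.24 to 8.04 in fish oil offspring and 6.44 to 7.58 in microalgae offspring. The mean level of 7 kidney and liver genes was 3.70 to 3.83 in fish oil offspring and 3.64 to 4.01 in microalgae offspring. STAR, CYP11A1, CYP11B1, MC2R and TH were not analysed here, as no probe set used carried their symbol alone.

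No probe set passed an adjusted p of 0.05 between the diets (limma, Benjamini-Hochberg, 0% of 20668, lowest adjusted p 0.9998). In fish oil offspring, 313 probe sets (1.51%) were higher and 194 (0.939%) lower at an unadjusted p under 0.05. Both shares together were below the share of 0.05 that this threshold passes on average when no probe set differs. The middle 90% of all differences, fish oil minus microalgae, lay between -0.35 and 0.36 log2, with a median of 0.01 and a median standard error of 0.20. Only 41 probe sets were higher by more than 1 log2 and 52 were lower by more than 1 log2, and 39 and 29 of these carried no gene symbol. The lowest value of the fish oil group exceeded the highest of the microalgae group for 434 probe sets (2.1%), and the reverse held for 356 (1.72%). With groups of 4 and 3 piglets, some probe sets separate fully by chance alone. A lack of overlap, given for single genes below, is therefore by itself no evidence of a diet difference. The values below therefore describe what separated these 7 piglets, and none of the named genes passed the adjusted threshold, each with an adjusted p of 0.9998.

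Among genes that were higher in fish oil offspring, immune genes were among those with the largest differences. SLA-DRB1, which encodes the beta chain of a pig MHC class II molecule that presents peptides to T cells, read 5.98, 6.22, 5.56 and 6.21 log2 in fish oil piglets 9, 11, 13 and 18, against 5.05, 4.89 and 5.47 in microalgae piglets 12, 15 and 22. The 2 diets did not overlap, and the difference was 0.86 ± 0.25 log2 (SE, unadjusted p 0.00269), a fold of 1.81. SLA-DRB1 belongs to a multigene family with many alleles, whose members a probe set may not tell apart. The control diet group read 5.52, 5.82 and 6.66 and spanned the whole fish oil range.

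CCL4, a chemokine that draws in monocytes and T cells, read 8.50, 7.96, 8.53 and 7.78 in fish oil offspring, against 7.76, 7.66 and 6.78 in microalgae offspring. The groups met closely without overlapping, at 7.78 and 7.76, and the difference was 0.79 ± 0.23 (unadjusted p 0.00301). Without microalgae piglet 22, the lowest of the 7, it was 0.48. HP, the haemoglobin-binding acute phase protein haptoglobin, read 6.60, 6.62, 6.06 and 5.38 in fish oil offspring and 5.27, 5.46 and 5.66 in microalgae offspring, a difference of 0.70 ± 0.32 (unadjusted p 0.0426). Fish oil piglet 18 lay inside the microalgae range for HP. NOS2, inducible nitric oxide synthase, averaged 4.59 ± 0.33 in fish oil offspring (SD, n = 4) and 4.19 ± 0.22 in microalgae offspring (SD, n = 3), and the fish oil mean was set apart by 1 piglet, number 9 at 5.09. RELT, a receptor of the TNF receptor superfamily, read 5.58, 5.43, 5.40 and 5.17 in fish oil offspring and 4.61, 4.98 and 4.51 in microalgae offspring. Its groups did not overlap, with a difference of 0.69 ± 0.15 (unadjusted p 0.000301), but the other tested probe set of RELT gave -0.18.

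Single genes with roles in membrane lipids or mitochondrial fuel use, namely CHKA, ECHDC3 and ETFA, were also among those higher in fish oil offspring. CHKA, choline kinase alpha, which starts the synthesis of phosphatidylcholine, read 6.81, 6.17, 6.85 and 6.39 in fish oil offspring, against 5.69, 5.66 and 5.91 in microalgae offspring. The groups were apart by 0.80 ± 0.21 log2 (unadjusted p 0.00129, a fold of 1.74), and the control diet group at 6.68, 6.82 and 6.43 sat with fish oil. ECHDC3, a mitochondrial protein of the enoyl-CoA hydratase family, averaged 5.16 ± 0.34 in fish oil offspring (SD, n = 4) and 4.47 ± 0.32 in microalgae offspring (SD, n = 3), with fish oil piglet 18 at 4.73 just below microalgae piglet 12 at 4.80. ETFA, a subunit of the flavoprotein that passes electrons from fatty acid oxidation to the respiratory chain, read 8.48, 8.68, 8.69 and 8.40 in fish oil offspring and 8.32, 8.30 and 8.12 in microalgae offspring. These ranges did not overlap, although the difference was only 0.32 ± 0.14 (unadjusted p 0.0322), inside the middle 90% of all differences.

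The other genes with the largest positive differences had roles in signalling, channels and chromosomes. TRPM3, a cation channel, read 5.68, 5.76, 6.06 and 5.94 in fish oil offspring and 5.14, 5.28 and 5.28 in microalgae offspring, with no overlap and a difference of 0.63 ± 0.15 (unadjusted p 0.000545). PDE1C, a phosphodiesterase that breaks down cyclic nucleotides, read 4.45, 4.77, 4.88 and 5.03 against 4.02, 4.36 and 4.20 in microalgae offspring, again without overlap (0.59 ± 0.18). FZD5, a Wnt receptor, was tightly grouped in fish oil offspring at 6.53 to 6.72 and spread from 5.62 to 6.57 in microalgae offspring. Its difference of 0.54 ± 0.17 became 0.31 without microalgae piglet 22. FBXL6, a ubiquitin ligase adaptor, was higher by 0.65, REC8, a cohesin subunit of meiosis, by 0.61, CENPB, a centromere-binding protein, by 0.52 and LOC100514951, to which no role is assigned here, by 0.68. Of the 12 genes with the largest positive differences and an unadjusted p under 0.01, the control diet mean lay between the fish oil and microalgae means for 9. These genes were picked for the distance between those means, so another group was likely to fall between them. The share over all genes was not counted, and no order of the diets can be read from it.

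**Figure D1:**
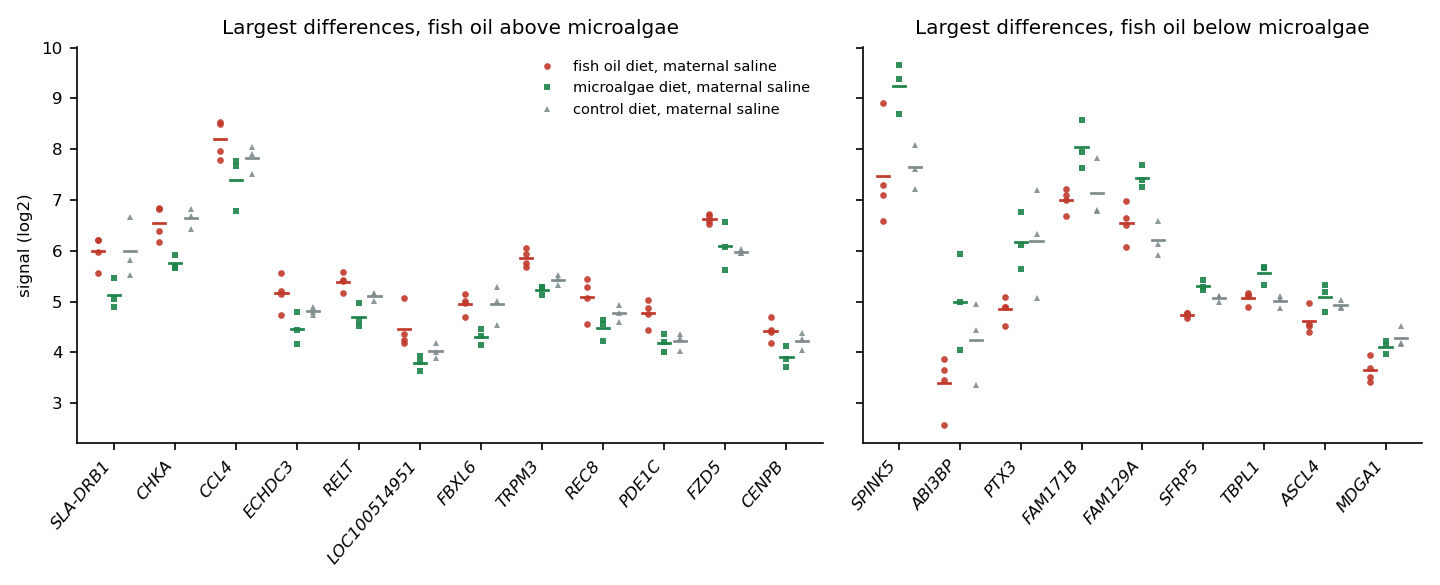
Log2 signal of each piglet (points) and group mean (bars) after maternal saline for the 12 genes with the largest positive and the 9 with the largest negative difference, fish oil minus microalgae, at an unadjusted p under 0.01. Fish oil piglets (red circles) lie above microalgae piglets (green squares) without overlap in 9 of the 12 genes at left, and below them without overlap in 7 of the 9 at right. Control diet piglets (grey triangles) are shown for reference.

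The genes that were lower in fish oil offspring had larger differences, and several encode secreted or matrix proteins. ABI3BP, a protein of the extracellular matrix, read 2.56, 3.88, 3.46 and 3.66 in fish oil offspring, against 5.0, 4.05 and 5.95 in microalgae offspring. The groups did not overlap and differed by -1.61 ± 0.53 log2 (unadjusted p 0.00735), with a 95% interval of -2.73 to -0.49. The fish oil mean of 3.39 was near 3.23, the lowest mean level kept for testing, and fish oil piglet 9 lay below it. PTX3, the long pentraxin that binds microbes and is secreted by stromal and immune cells in inflammation, read 4.90, 4.51, 5.08 and 4.89 in fish oil offspring, against 6.11, 5.65 and 6.76 in microalgae offspring. All fish oil piglets were below all microalgae piglets, with a difference of -1.33 ± 0.42 log2 (unadjusted p 0.00549, a fold of 2.51), and the control diet group at 6.33, 7.20 and 5.07 was as high as microalgae in 2 of 3 piglets.

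SPINK5, a serine protease inhibitor of epithelia, had the largest of these differences at -1.77 ± 0.47 log2 (unadjusted p 0.00139). Its values were 6.60, 8.91, 7.10 and 7.30 in fish oil offspring and 8.70, 9.66 and 9.38 in microalgae offspring, so fish oil piglet 11 lay inside the microalgae range. FAM129A, a stress-responsive gene also known as NIBAN1, read 6.65, 6.08, 6.97 and 6.51 in fish oil offspring and 7.39, 7.25 and 7.69 in microalgae offspring. It did not overlap (-0.89 ± 0.25, unadjusted p 0.00211), and the control diet group at 6.59, 6.13 and 5.93 was close to fish oil. FAM171B, a membrane protein, read 6.69, 7.09, 7.22 and 7.01 in fish oil offspring and 7.95, 7.62 and 8.58 in microalgae offspring, also without overlap (-1.04 ± 0.35).

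SFRP5, a secreted inhibitor of Wnt ligands, had the smallest p of the named genes (unadjusted p 0.000237). It read 4.74, 4.77, 4.77 and 4.68 in fish oil offspring, against 5.23, 5.30 and 5.42 in microalgae offspring. The spread within each diet was small beside the difference of -0.58 ± 0.13 log2, and the control diet group at 5.10, 5.12 and 5.0 lay between. TBPL1, a relative of the TATA-binding protein, differed by -0.49 ± 0.15 and MDGA1, a cell-surface adhesion protein, by -0.47 ± 0.16, both without overlap. ASCL4, a basic helix-loop-helix transcription factor, differed by -0.48 ± 0.15 and overlapped. Of these 9 genes, the control diet mean lay between the fish oil and microalgae means for 5, a count with the same limit of selection.

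Gene lists for adrenal, lipid, energy, stress, immune and cell type functions were then described by how many of their tested genes lay on each side of 0. Over all 9992 genes, with 1 probe set for each, 4815 (48.2%) were higher in fish oil offspring, the median difference was -0.01 log2, 131 had an unadjusted p under 0.05 on the higher side and 99 on the lower side, and 214 and 179 did not overlap. No list had a gene past the adjusted threshold.

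**Figure D2:**
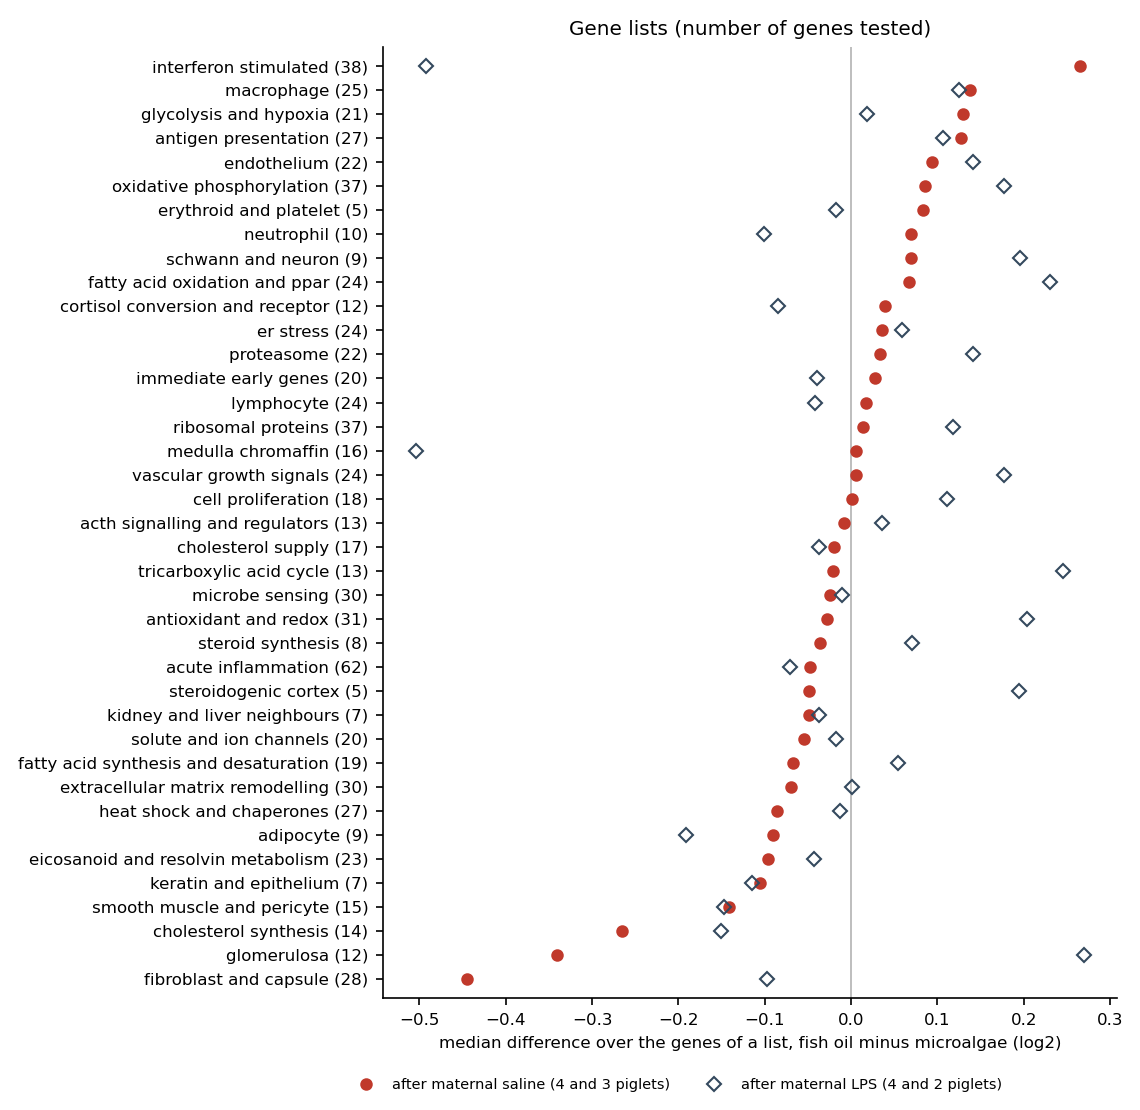
Median difference, fish oil minus microalgae, in log2, over the tested genes of each list (number in brackets), after maternal saline (red circles) and after maternal LPS (open diamonds), for lists with at least 5 tested genes. After maternal saline, fibroblast and capsule genes lie lowest at -0.45 and interferon-stimulated genes highest at 0.26, and the diamonds of these lists lie at -0.10 and -0.49.

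Fibroblast, capsule and matrix genes stood lowest of all lists with at least 5 tested genes. Of 28 tested genes, 23 were lower in fish oil offspring, the median difference was -0.45 log2, 4 had an unadjusted p under 0.05, all on the lower side, and 10 lay below the microalgae group without overlap, against 1 above it. In bulk tissue, fewer such cells and less RNA per cell cannot be told apart. MFAP5, a protein of elastic microfibrils, read 2.64, 3.82, 3.36 and 2.97 in fish oil offspring, against 4.68, 4.86 and 6.36 in microalgae offspring. The groups did not overlap (-2.10 ± 0.57, unadjusted p 0.00167), although the fish oil mean of 3.19 was below the level under which probe sets were left out.

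Collagens I and III showed the same order of groups. COL3A1, collagen III, read 5.99, 5.82, 6.49 and 6.08 in fish oil offspring, against 6.69, 6.96 and 7.44 in microalgae offspring, a difference of -0.93 ± 0.41 (unadjusted p 0.0355). COL1A1 and COL1A2, the chains of collagen I, differed by -1.15 ± 0.66 and -0.93 ± 0.50, and neither overlapped between the diets, although both had an unadjusted p above 0.05. FBN1, the microfibril protein fibrillin, read 6.46, 6.71, 6.90 and 6.86 in fish oil offspring and 7.0, 7.22 and 7.36 in microalgae offspring (-0.46 ± 0.19). COL6A3, a chain of collagen VI, differed by -0.43 ± 0.19, and its other tested probe sets gave -0.41 and -0.30. The small proteoglycans decorin (DCN, -1.41 ± 0.87) and lumican (LUM, -1.26 ± 0.96) and the fibroblast protease FAP (-1.30 ± 0.75) had differences as large but overlapped, with microalgae piglet 22 highest at 8.77, 7.81 and 6.91.

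Not every matrix gene took part. COL5A1 (0.33 ± 0.23), THY1, a fibroblast surface protein (0.19 ± 0.27), FBLN5, fibulin of elastic fibres (0.21 ± 0.29), BGN, the proteoglycan biglycan (0.09 ± 0.22), and COL12A1 (0.04 ± 0.23) were the 5 genes above 0. The mean level over the 28 genes was 5.28, 5.81, 5.62 and 5.94 log2 in fish oil piglets 9, 11, 13 and 18, against 5.99, 6.08 and 6.58 in microalgae piglets 12, 15 and 22. The groups were thus adjacent, with fish oil piglet 18 and microalgae piglet 12 close together, and the control diet group at 6.65, 6.19 and 5.64 spanned the boundary. Leaving out any 1 of the 7 piglets kept the median difference between -0.52 and -0.33.

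**Figure D3:**
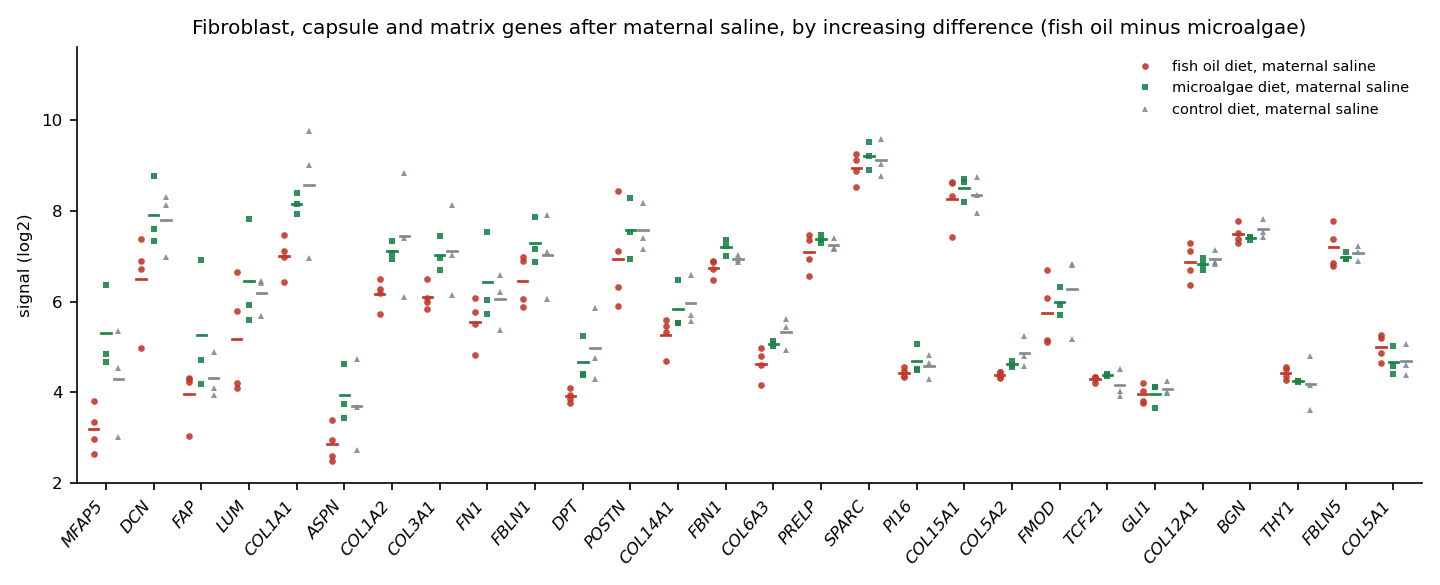
Log2 signal of each piglet after maternal saline for the 28 tested fibroblast, capsule and matrix genes, ordered by the difference, fish oil minus microalgae, with bars at the group means. MFAP5 at left differs by -2.10 and COL5A1 at right by 0.33, and control diet piglets (grey triangles) spread widely for the collagens.

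ABI3BP, PTX3 and SPINK5 were named for being lower in fish oil offspring, so that choice fixed the direction they share with this list. Their dependence on the list was not tested. Smooth muscle and pericyte genes, which mark vessel walls, were lower for 10 of 15 (median -0.14), and none had an unadjusted p under 0.05. Genes of matrix remodelling were lower for 19 of 30, with a median of -0.07. Without fish oil piglet 9 these medians were -0.028 and -0.0072.

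Zona glomerulosa genes were lower in fish oil offspring for 10 of 12, with a median of -0.34 log2. RSPO3, the only member of this list with an unadjusted p under 0.05, is a Wnt agonist that the capsule secretes toward the glomerulosa in mice. It is therefore no marker of the glomerulosa cells themselves. RSPO3 read 3.59, 5.39, 2.43 and 4.93 in fish oil offspring, against 5.17, 6.47 and 6.97 in microalgae offspring. Its difference of -2.12 ± 0.92 (unadjusted p 0.0338) was the largest of the named genes, with overlap through fish oil piglet 11. For RSPO3, fish oil piglet 13 lay below 3.23, the lowest mean level kept for testing. AGTR1, the angiotensin receptor that drives aldosterone synthesis, differed by -0.85 ± 0.59, and WNT4, a Wnt ligand of the zone, by -0.45 ± 0.28. The mean level of the 12 genes was 6.12, 6.89, 6.25 and 7.35 in fish oil piglets 9, 11, 13 and 18, against 7.14, 6.94 and 7.26 in microalgae offspring, so that piglets 9 and 13 were low and piglet 18 was the highest of all 7. Without piglet 9 the median was -0.16.

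Steroid synthesis genes were close between the diets. CYP17A1 averaged 12.42 ± 0.05 in fish oil offspring (SD, n = 4) and 12.47 ± 0.13 in microalgae offspring (SD, n = 3), and the 95% interval of the difference ran from -0.39 to 0.30 log2. SCARB1, the HDL receptor through which the adrenal takes up cholesterol ester, averaged 11.50 ± 0.12 in fish oil offspring (SD, n = 4) and 11.54 ± 0.29 in microalgae offspring (SD, n = 3), with an interval from -0.53 to 0.47. Of 8 steroid synthesis genes, 3 were higher and 5 lower, with a median of -0.04. CYB5A, cytochrome b5, which favours the androgen-forming reaction of CYP17A1, was the exception in size at -1.56 ± 1.07. Microalgae piglet 22 alone read 10.96 for CYB5A, beside 6.30 and 8.29 in piglets 12 and 15 and 6.20 to 8.02 in fish oil offspring. Genes of the medulla were higher for 9 of 16, with a median of 0.01, which was -0.25 without microalgae piglet 22 and 0.19 without microalgae piglet 12.

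Cholesterol synthesis genes were lower in fish oil offspring for 12 of 14, with a median of -0.27 log2 and no unadjusted p under 0.05. STARD4, a carrier of cholesterol within the cell, read 4.28, 4.45, 2.56 and 3.87 in fish oil offspring and 5.0, 3.88 and 4.68 in microalgae offspring (-0.73 ± 0.39). SQLE, squalene epoxidase, read 6.70, 7.31, 5.64 and 6.70 in fish oil offspring and 7.56, 6.56 and 7.16 in microalgae offspring (-0.50 ± 0.35). MSMO1, a methylsterol oxidase later in the same pathway, differed by -0.52 ± 0.35. Fish oil piglet 13 was the lowest of the 7 for all 3 of these genes, and the mean over the list was 5.96 in that piglet, against 6.83, 7.03 and 6.92 in the other fish oil piglets. Without piglet 13 the median was -0.04 with 8 of 14 lower, and without microalgae piglet 12, which was highest at 7.28, it was -0.06.

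Genes that handle polyunsaturated fatty acids were next. FADS1, the delta-5 desaturase, read 7.56, 8.17, 7.42 and 8.19 in fish oil offspring, against 8.62, 8.04 and 8.28 in microalgae offspring, a difference of -0.48 ± 0.28 (unadjusted p 0.103) with overlap. FADS2, the delta-6 desaturase, averaged 9.85 ± 0.09 in fish oil offspring (SD, n = 4) and 9.79 ± 0.20 in microalgae offspring (SD, n = 3), and its interval ran from -0.33 to 0.45. Of 19 genes of fatty acid synthesis and desaturation, 13 were lower (median -0.07, or 0.049 without microalgae piglet 12). PLA2G7, which breaks down platelet-activating factor and oxidised phospholipids, read 3.54, 3.94, 3.21 and 2.81 in fish oil offspring and 4.06, 3.76 and 4.28 in microalgae offspring. Its difference was -0.66 ± 0.26 (unadjusted p 0.02) with overlap through piglet 11, and 15 of 23 genes of eicosanoid metabolism lay below 0 (median -0.10, or -0.0085 without microalgae piglet 12). For PLA2G7, fish oil piglets 13 and 18 lay below 3.23, the lowest mean level kept for testing.

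Fatty acid oxidation and PPAR genes were higher for 14 of 24 (median 0.07), and 3 of the 24 lay above the microalgae group without overlap. RXRA, the retinoid X receptor that pairs with PPARs and binds omega-3 fatty acids, read 4.88, 4.84, 4.82 and 4.71 in fish oil offspring and 4.71, 4.16 and 4.48 in microalgae offspring (0.36 ± 0.17, unadjusted p 0.0415). The lowest fish oil value met the highest microalgae value. PPARG, the lipid-sensing receptor of fat cells and macrophages, read 3.62, 3.47, 3.61 and 3.55 against 3.41, 3.31 and 3.03 in microalgae offspring. These ranges did not overlap, near the lowest level tested (0.31 ± 0.19, unadjusted p 0.113). Genes of oxidative phosphorylation were higher for 28 of 37, with a median of 0.09 and no unadjusted p under 0.05. Their mean level was 7.23, 7.22, 7.17 and 6.98 in fish oil piglets 9, 11, 13 and 18, against 7.10, 6.99 and 7.07 in microalgae offspring. Fish oil piglet 18 was thus the lowest of the 7.

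Interferon-stimulated genes were higher in fish oil offspring for 37 of 38, with a median of 0.26 log2, yet none had an unadjusted p under 0.05 and none separated the groups. STAT2, which carries the interferon signal to the nucleus, read 8.66, 8.28, 8.51 and 8.55 in fish oil offspring and 8.36, 8.27 and 7.79 in microalgae offspring (0.36 ± 0.22). USP18, an interferon-induced brake on the pathway, differed by 0.60 ± 0.43 and HERC5, an enzyme that attaches ISG15 to proteins, by 0.50 ± 0.32. The mean over the 38 genes was 8.34, 8.02, 8.17 and 8.32 in fish oil offspring, against 8.23, 8.04 and 7.57 in microalgae piglets 12, 15 and 22. Microalgae piglets 12 and 15 lay inside the fish oil range and piglet 22 below it. Without piglet 22 the median was 0.04 and 24 of 38 genes were higher.

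**Figure D4:**
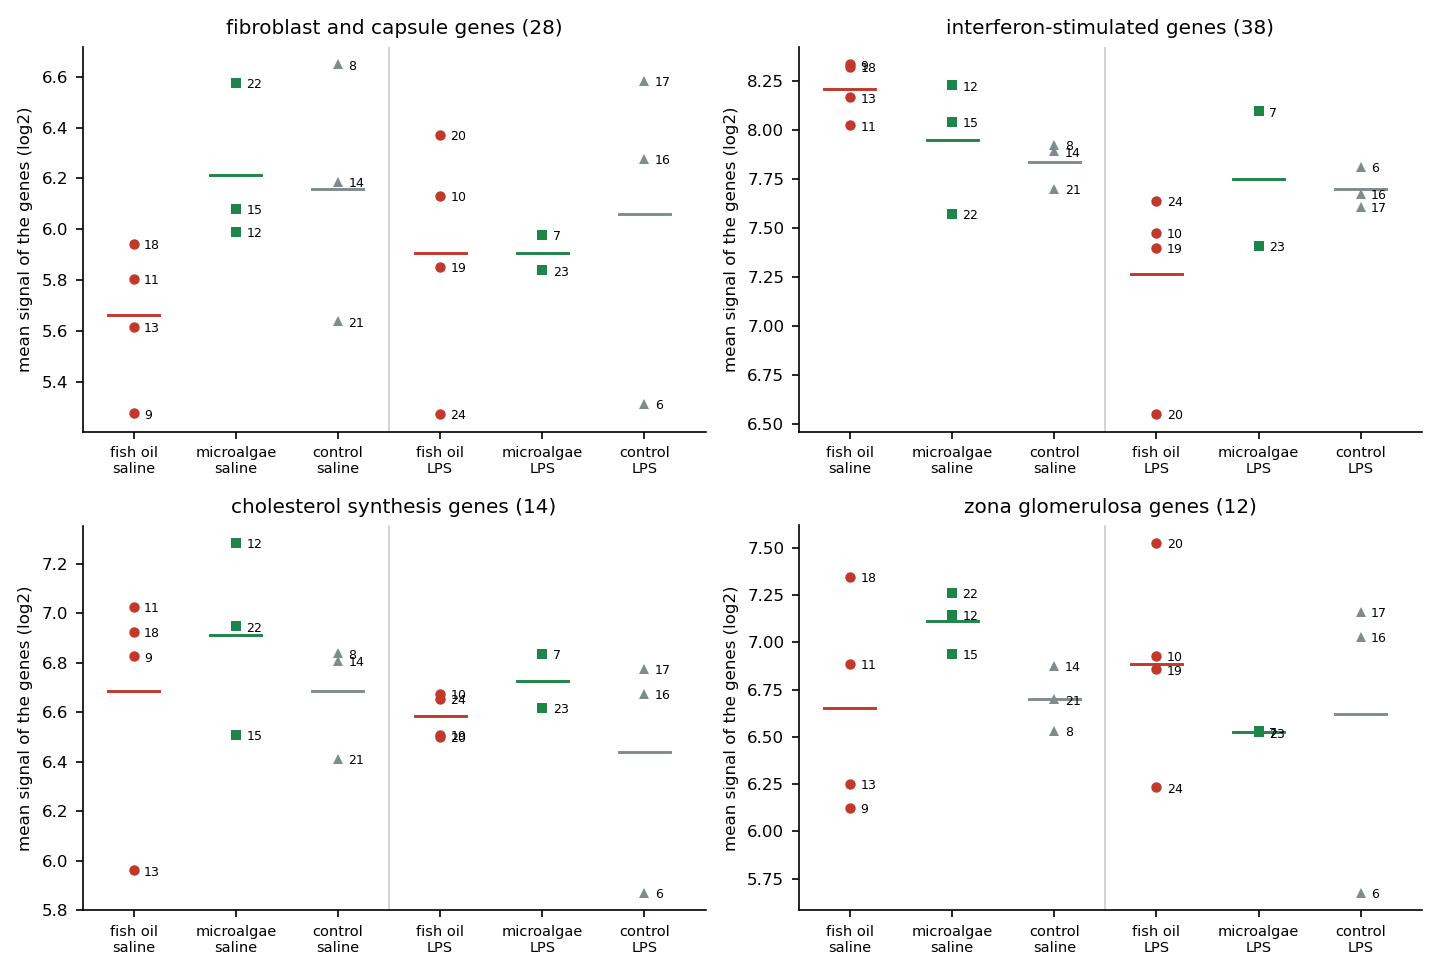
Mean log2 signal over the genes of 4 lists in each of the 19 piglets (points, numbered) by maternal diet and maternal challenge, with bars at the group means. After maternal saline, fibroblast and capsule genes run from 5.28 to 5.94 in fish oil piglets and from 5.99 to 6.58 in microalgae piglets, interferon-stimulated genes are lowest in microalgae piglet 22 at 7.57, and cholesterol synthesis genes are lowest in fish oil piglet 13 at 5.96.

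The same microalgae piglet bore on other immune lists. Macrophage genes were higher for 21 of 25 (median 0.14) and antigen presentation genes for 20 of 27 (median 0.13), but without piglet 22 the medians were 0.01 and -0.03. MRC1, the mannose receptor of resident macrophages, read 6.28, 5.78, 5.47 and 6.37 in fish oil offspring and 5.98, 5.41 and 5.14 in microalgae offspring (0.46 ± 0.28). Endothelial genes were higher for 14 of 22 (median 0.09, or 0.023 without microalgae piglet 15), and 4 lay above the microalgae group without overlap. CD34, a surface protein of small-vessel endothelium, read 5.19, 5.13, 5.32 and 5.20 in fish oil offspring, against 5.07, 4.54 and 4.88 in microalgae offspring (0.38 ± 0.14, unadjusted p 0.0155).

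Acute inflammatory genes were mixed, with 27 higher and 35 lower of 62 (median -0.05), 3 with an unadjusted p under 0.05 on the higher side and 1, PTX3, on the lower side. IL6, the cytokine that stimulates the adrenal directly, read 9.53, 9.31, 11.02 and 11.36 in fish oil offspring, against 10.68, 11.18 and 10.78 in microalgae offspring. Fish oil piglets 9 and 11 lay below the microalgae values, piglet 13 among them and piglet 18 above them, and the interval of the difference was wide at -1.77 to 0.63. CXCL8, the neutrophil chemokine interleukin 8, averaged 10.40 ± 0.51 in fish oil offspring (SD, n = 4) and 10.65 ± 0.20 in microalgae offspring (SD, n = 3). TNF, the early cytokine of the LPS response, averaged 5.46 ± 0.25 in fish oil offspring (SD, n = 4) and 5.18 ± 0.32 in microalgae offspring (SD, n = 3). TLR2, a receptor for bacterial lipoproteins, read 5.49, 5.50, 5.55 and 5.78 in fish oil offspring, against 5.90, 6.03 and 5.99 in microalgae offspring. It did not overlap (-0.39 ± 0.16, unadjusted p 0.0213), but its other tested probe set gave -0.09. DDIT3, a transcription factor of the unfolded protein response, was higher in fish oil offspring by 0.33 ± 0.15 without overlap, and EGLN3, an oxygen-sensing prolyl hydroxylase, differed by -0.64 ± 0.27 with overlap, or by -0.27 without microalgae piglet 22. For EGLN3, fish oil piglets 9 and 11 read 3.07 and 2.92, below 3.23, the lowest mean level kept for testing.

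Most of the remaining lists lay near the median of all genes. Genes that convert cortisol or receive its signal were higher for 6 of 12 (median 0.04), and genes of ACTH signalling for 6 of 13 (median -0.01). Heat shock proteins and chaperones were higher for 10 of 27 (median -0.09), antioxidant genes for 14 of 31 (median -0.03), endoplasmic reticulum stress genes for 16 of 24 (median 0.04) and immediate early genes, the first to respond to a stimulus, for 11 of 20 (median 0.03). Glycolysis and hypoxia genes were higher for 14 of 21 (median 0.13, or 0.034 without microalgae piglet 22), tricarboxylic acid cycle genes for 6 of 13 (median -0.02), ribosomal protein genes for 19 of 37 (median 0.01), proteasome genes for 14 of 22 (median 0.03) and cell proliferation genes for 9 of 18. Lymphocyte genes were higher for 13 of 24 (median 0.02) and neutrophil genes for 6 of 10 (median 0.07). With 1 of the 7 piglets left out, the medians of these lists ranged from -0.16 to 0.21. Among these lists, DDIT3, EGLN3 and HP were the members with an unadjusted p under 0.05. Probe sets with no gene symbol made up 9647 of those tested, and 169 of them were higher and 85 lower in fish oil offspring at an unadjusted p under 0.05.

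The same diet contrast could be read in piglets of LPS-challenged sows, which share no array with the saline comparison. There too no probe set passed the adjusted threshold (limma, 0%, lowest adjusted p 0.666). In fish oil offspring of these sows, 675 (3.27%) were higher and 772 (3.74%) lower at an unadjusted p under 0.05, a split that became 1064 and 444 when each array was centred on its median. Across the 20668 probe sets, the saline and LPS differences correlated at -0.28, as a description over probe sets that share the same arrays within each contrast. The difference between the contrasts was itself tested, and no probe set passed the adjusted threshold (0%, lowest adjusted p 0.584), while 1495 (7.23%) had an unadjusted p under 0.05.

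Of the 43 named genes, 19 had a difference of the same sign after maternal LPS. The share over all probe sets was not counted. The named genes also include SCARB1, CYP17A1 and FADS2, with saline differences of -0.03, -0.05 and 0.06, whose sign carries little. Of the 12 genes with the largest positive differences after saline, 4 were also positive after LPS, none of these with an unadjusted p under 0.05, and of the 9 with the largest negative differences, 4 were also negative. CHKA was the clearest opposite, at 6.23, 6.27, 6.63 and 6.28 in fish oil offspring of LPS-challenged sows, against 7.25 and 6.92 in microalgae offspring. The fish oil group lay below the microalgae group there, with a difference of -0.73 ± 0.24 (unadjusted p 0.00654), and the contrasts differed by 1.54 log2 (unadjusted p 0.000139, adjusted p above the threshold). CHKA was named for its saline difference, which is part of that last contrast, so its p-value is no independent test of a reversal. FBXL6 and REC8 were likewise lower in fish oil offspring after maternal LPS, with differences of -0.50 and -0.61, and HP had a difference of -0.84. CD34 kept its direction, at 5.13 to 5.38 in fish oil offspring of LPS-challenged sows and 4.65 and 4.70 in microalgae offspring (0.55 ± 0.16, unadjusted p 0.00293). PPARG also stood higher in fish oil offspring after maternal LPS, by 0.46 ± 0.21, with overlap. Its microalgae values there, 3.16 and 2.89, and fish oil piglet 19 at 2.98 lay below 3.23, the lowest mean level kept for testing. COL6A3 lay below the microalgae group without overlap in both contrasts (-0.43 after saline and -0.38 after LPS), and TLR2 (-0.39 and -0.34) and SFRP5 (-0.58 and -0.27) were also lower in both, with overlap after LPS.

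**Figure D5:**
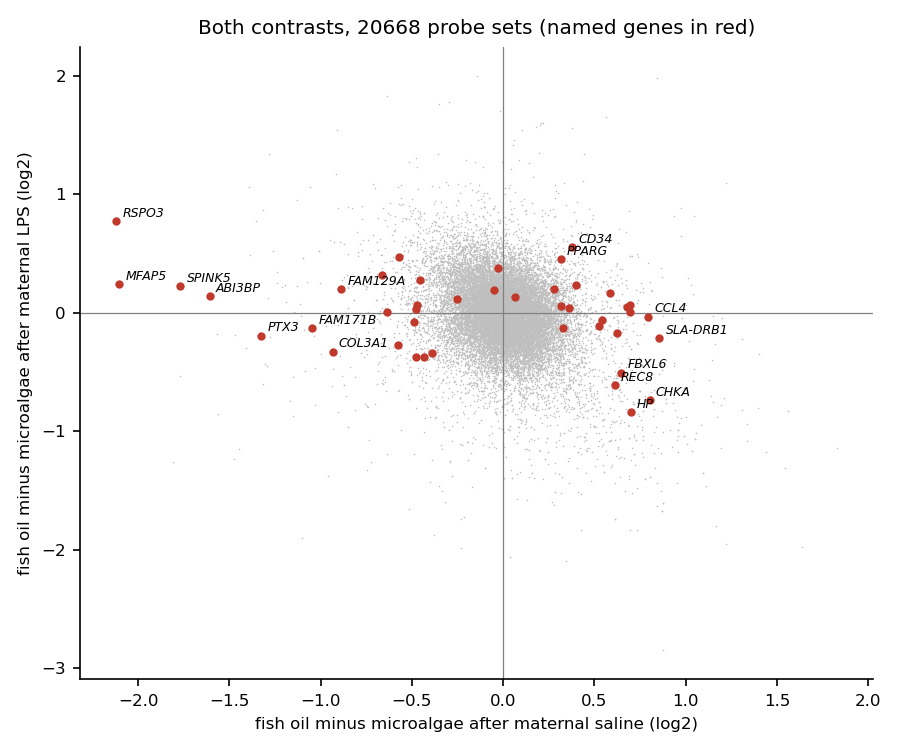
Difference, fish oil minus microalgae, in log2, after maternal saline (horizontal) and after maternal LPS (vertical), for 20668 probe sets (grey) and the 43 named genes (red, some labelled). The cloud tilts downward (correlation -0.28), CHKA, REC8, FBXL6 and HP lie at lower right, and CD34 and PPARG lie at upper right.

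Some lists lay on opposite sides of 0 in the contrasts and others on the same side. Interferon-stimulated genes, higher after saline in 37 of 38, were higher in only 2 of 38 after maternal LPS, with a median of -0.49. In that contrast, fish oil piglet 20 was lowest at a list mean of 6.55 and microalgae piglet 7 highest at 8.10. Medulla genes, near 0 after saline, were lower in fish oil offspring for 13 of 16 after maternal LPS, with a median of -0.50. Their list mean there was 7.19 in microalgae piglet 7. Microalgae piglet 23, at 6.27, lay inside the fish oil range of 5.86 to 6.54. Glomerulosa genes were higher in fish oil offspring for 11 of 12 after maternal LPS (median 0.27), and fibroblast genes were higher for 11 of 28 (median -0.10). Macrophage genes (19 of 25 higher, median 0.13), endothelial genes (17 of 22, median 0.14), oxidative phosphorylation genes (27 of 37, median 0.18) and fatty acid oxidation and PPAR genes (18 of 24, median 0.23) were on the higher side after maternal LPS as well. Over all 9992 genes, 5256 were higher there, with a median of 0.02. Ribosomal protein (30 of 37), proteasome (17 of 22), antioxidant (23 of 31) and tricarboxylic acid cycle genes (11 of 13) were also mostly higher after maternal LPS. Their medians after saline were 0.01, 0.03, -0.03 and -0.02, so the higher side after maternal LPS was not particular to lists higher after saline. With 2 microalgae piglets after maternal LPS, the list values there rest on few animals, and no difference between the contrasts of a list was tested.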

How the data were processed

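Adrenal RNA from 19 male piglets was hybridised to 1-colour Affymetrix arrays, labelled with the WT PLUS reagents per the labels. The authors deposited 1 table of log2 signals per probe set, from Transcriptome Analysis Console 4.0 per the submitters' processing notes. That the base is 2 was inferred from the range of the values, 0.263 to 13.5, and the summarisation and normalization are not given in the sources used here. Scanner intensities were not used. Control probe sets could not be recognised and were not removed.

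Gene symbols came from the platform's annotation, updated through gene IDs in the RefSeq table, where 12841 of the 13157 probe sets with 1 symbol were found and 7 symbols changed. Probe sets with several symbols (523) or none (13878) were tested but not named. The lowest 25% by mean signal (6890) were left out. Groups came from the labelled maternal diet and challenge. All 19 arrays entered 1 linear model with 6 group means, fitted with limma 3.58.1 in R 4.3.3 (lmFit, then eBayes with an intensity trend, 13 residual and 4.62 prior degrees of freedom). Two-sided p-values were adjusted by the Benjamini-Hochberg method over 20668 probe sets. The fit was tested on simulated data with known changes. The number of arrays limits the precision, at a median standard error of 0.20 log2 for the saline contrast and 0.23 for the LPS contrast.

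For a symbol with several probe sets, the one with the highest mean was used. Genes were named by a rule: up to 12 with the largest differences past the adjusted threshold in each direction, filled where too few passed with those at an unadjusted p under 0.01 and both group means above the filter level, up to 4 per list with the smallest p under 0.05, and a fixed set (CYP17A1, SCARB1, IL6, CXCL8, TNF, FADS1, FADS2, PPARG, and others at a p under 0.05). Further list members, such as COL1A1, DCN, STARD4, STAT2, MRC1 and CYB5A, were picked as examples after their values were seen. The comparison, the lists and the rule were chosen with earlier results of these data known, so no list is independent support, and no set test was run. Alternatives were another filter, quantile normalization, median centring, other variance priors, array weights, covariates, fewer arrays and leaving out each piglet.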

Additional observations from a re-analysis of the deposited data

Results flagged for a closer look

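In the fish oil offspring after maternal saline, NOS2 read 5.09 in piglet 9, while the other 3 piglets lay between 4.40 and 4.44. This piglet stood far from the rest of its group by Dixon's test, the only one found among 43 named genes, and chance flags about 1 in 20 such groups. Without piglet 9 the NOS2 difference, fish oil minus microalgae, was 0.23 log2.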

How the results depend on the processing

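No probe set passed an adjusted p of 0.05 for the saline contrast under any of the alternatives run in limma, each listed in the account of the processing, or without piglets 6 and 24, the arrays with the smallest interquartile range, an alternative chosen after seeing the data. Counts at an unadjusted p under 0.05 for this contrast, 313 higher and 194 lower in fish oil offspring, depended more on the setting. The lower count was 104 with the lowest 50% of probe sets left out, 292 with the 7 arrays alone, 319 with the 10 saline arrays and 339 without piglets 6 and 24, and with each array's spread as a covariate the counts were 553 higher and 547 lower. Leaving out 1 piglet at a time gave 172 (without piglet 9) to 511 (without 18) higher and 143 to 309 (without 15) lower. After maternal LPS, array weights, the fit without piglets 6 and 24 and the fit without fish oil piglet 24 each gave 2 probe sets past the adjusted threshold, against 0, and other piglets left out gave 0. The unadjusted LPS counts, 675 higher and 772 lower, became 487 lower with the lowest 50% left out, 1064 and 444 with median centring, 1339 higher with array weights, 412 higher with the 6 LPS arrays alone, and 1585 and 1266 without piglets 6 and 24. Leaving out 1 piglet gave 260 (without microalgae piglet 7) to 1410 (without 24) higher and 284 (without 7) to 1150 lower. For the difference of the contrasts, 1495 became 2249 with array weights, 2902 without piglets 6 and 24, and 761 (without 7) to 2590 (without 24) with 1 piglet left out. The cause of these shifts was not tested. Among named genes the sign turned only for SCARB1 (0.0091 without piglet 9, 0.12 without 22) and FADS2 (-0.051 without 15), both near 0. Without 1 piglet, list medians ran from 0.04 to 0.42 for interferon-stimulated, -0.47 to -0.04 for cholesterol synthesis, -0.53 to -0.16 for glomerulosa, -0.52 to -0.33 for fibroblast, 0.01 to 0.30 for macrophage, -0.03 to 0.23 for antigen presentation, -0.12 to 0.02 for acute inflammation and 0.02 to 0.19 for endothelial genes. No paired analysis was possible because the groups share no piglet numbers.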
